A study of Mus musculus with 8 samples.

Results

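Serpine2 and 6 genes of plasminogen activation (Plau, Plaur, Plat, Serpinb2, Anxa2 and S100a10) were followed through 8 RNA-seq libraries of mouse pancreatic tumours. All 7 were found by symbol among the 54532 genes of the deposited count table, and all 7 passed the filter on low counts that 18238 genes passed. They were chosen from earlier results of the same comparison: Serpine2 was selected because its p was among the smallest of the genes that lay higher under the peptide, and the other 6 were added as its pathway. The treatment differences of the 7 genes are therefore given as a description, without a test.

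The tumours had grown in the pancreas of C57BL/6 mice from implanted KPC cells, a mouse line of pancreatic ductal adenocarcinoma. For 2 weeks the mice were given either saline (Saline, n = 4) or the peptide TLQP21, which derives from the VGF precursor of neurons and endocrine cells (TLQP21, n = 4). Both groups carried the same tumour cells and differed, per the labels, in the agent given. The labels state neither the dose nor the age or sex of the mice. Nor do they state whether each library came from its own animal, so every p-value here reflects only how these libraries scatter, which may be technical. The series asks which transcripts accompany the slower tumour growth that its submitters describe under the peptide.

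Plasminogen is a zymogen made mainly by the liver and carried in plasma. The urokinase-type activator (Plau), held at the cell surface by its receptor (Plaur), and the tissue-type activator (Plat) cleave it to plasmin, a protease that dissolves fibrin and cuts extracellular matrix. Serpins stop the activators: Serpinb2 (PAI-2) acts on them, while Serpine2 (protease nexin-1) also blocks thrombin and plasmin. Annexin A2 (Anxa2) and its partner S100a10 form a complex on the cell surface that binds plasminogen and Plat. In pancreatic cancer, tumour cells, fibroblasts and myeloid cells are all known sources of parts of the system.

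Whole tumours were sequenced, so that fewer cells of a type and less RNA per cell cannot be told apart. Library totals ran from 28358465 to 28963457 counts in Saline and from 29027480 to 33536087 in TLQP21. The totals did not overlap (exact permutation test, two-sided, p = 0.0286, the smallest the design allows), and left-out Saline libraries raised this p to between 0.0857 and 0.143. The labels call the material pancreatic cancer cells, and the ductal markers Krt19 (968 to 1330 CPM) and Epcam (536 to 810 CPM) were high in every library. Saline 2 stood apart by liver transcripts: 6 hepatocyte markers summed to 4041 CPM there and to 5.58 to 9.27 CPM in the other libraries. Saline 4 stood apart by its acinar markers (47030 CPM, against 9810 to 25930 CPM elsewhere), its fibroblast markers (11190 CPM, against 5458 to 8067) and its neutrophil markers (768 CPM, against 160 to 333). Libraries 1 and 2 of each group held Xist and libraries 3 and 4 held Y-linked transcripts, a split that the labels do not mention.

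Stretches of 100 bases before the annotated first exons are shown for Serpine2, Plaur, Serpinb2 and Anxa2. Of the 7 members, these 4 had a promoter entry. The stretches were not tested against the levels of the genes. They are from RefSeq on GRCm38.p6, written 5′ to 3′ on the gene's strand. Capitals mark matches to GGGCGG (the SP1 box), TGAGTCA (the AP-1 site) or TATAAA (the TATA box) on either strand, so that the AP-1 match of Plaur reads as TGACTCA. Overlapping matches were each counted. The Serpine2 stretch is chr1:79858697-79858796 on the minus strand and ends 31 bases before the RefSeq start site, inside the deposited gene model, whose longest form starts further upstream. The others lie on the plus strand, at chr7:24462383-24462482 for Plaur, chr1:107511323-107511422 for Serpinb2 and chr9:69453520-69453619 for Anxa2.
Serpine2: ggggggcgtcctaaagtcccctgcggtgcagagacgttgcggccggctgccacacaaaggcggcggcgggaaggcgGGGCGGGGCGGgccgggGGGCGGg
Plaur: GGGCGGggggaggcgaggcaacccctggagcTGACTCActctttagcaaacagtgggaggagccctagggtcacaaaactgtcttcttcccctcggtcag
Serpinb2: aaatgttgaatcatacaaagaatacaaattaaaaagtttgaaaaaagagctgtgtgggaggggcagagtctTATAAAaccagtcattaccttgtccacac
Anxa2: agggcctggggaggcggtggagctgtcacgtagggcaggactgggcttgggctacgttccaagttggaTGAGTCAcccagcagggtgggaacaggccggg

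The Serpine2 stretch was 79% G and C, against 61% for Plaur, 66% for Anxa2 and 35% for Serpinb2. Over the whole RefSeq windows of 300 bases (250 before the start site and 50 after), Serpine2 held 6 matches to GGGCGG and 0 to TGAGTCA, Plaur held 3 and 1, and Anxa2 held 3 and 1. The SP1 box was present in 35.7% of 32851 promoter windows of that length and the AP-1 site in 5.2%. Anxa2 and Serpinb2 also held TATAAA, found in 13.6% of windows, and no window of these 4 genes held TGACGTCA (the CRE) or the NF-kappaB decamer. Of the 7 genes, 4 had an entry among these windows, Serpinb2 with 2 start sites.

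Serpine2, the inhibitor that opened the list, was the member with the largest treatment difference in the upward direction and the only one of the 7 whose groups did not overlap. It was at 116.5, 112.7, 117.1 and 96.0 CPM (counts per 1000000 counts of the library, after trimmed-mean scaling) in Saline 1 to 4 and at 123.9, 147.1, 131.6 and 170.5 CPM in TLQP21 1 to 4. The lowest TLQP21 library was thus 1.06 times the highest Saline library, and the lowest Saline level and the highest TLQP21 level were both in the libraries numbered 4. Mean levels were 110.6 ± 9.90 and 143.3 ± 20.6 CPM (SD, n = 4 each), a log2 fold change of 0.37 (SE 0.12), or 1.30-fold. Over all tested genes, 148 (0.811%) were higher in TLQP21 without overlap and 154 (0.844%) were lower, and Serpine2 is among the former by the way it was chosen. Leaving out Saline 4 together with TLQP21 4, a setting added after seeing the data, lowered the log2 fold change of Serpine2 to 0.21. As these libraries hold its extremes, some lowering follows from that choice. The summed markers of smooth muscle cells and pericytes, 6 genes led by Acta2 and Rgs5, also lay apart between groups, at 235, 200.9, 253.2 and 266.2 CPM in Saline and 293, 296.8, 273.1 and 271.1 CPM in TLQP21. All 6 had log2 fold changes above 0 (median 0.26), Acta2 alone with an unadjusted p under 0.05, none of the 6 without overlap on its own and none passing adjustment. This set was singled out after all marker sums were seen, as the only sum without overlap between groups. Within groups, Saline 4 had the highest Saline sum and the lowest Serpine2 level, while Saline 1 to 3 ranked alike in both. TLQP21 4 had the lowest TLQP21 sum and the highest Serpine2 level. The part of smooth muscle cells and pericytes in the Serpine2 levels was not tested. The reads behind these levels numbered 2539 to 5522 per library, on chromosome 1 from 79794197 to 79861180 (ENSMUSG00000026249, minus strand, GRCm38).

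**Figure D1:**
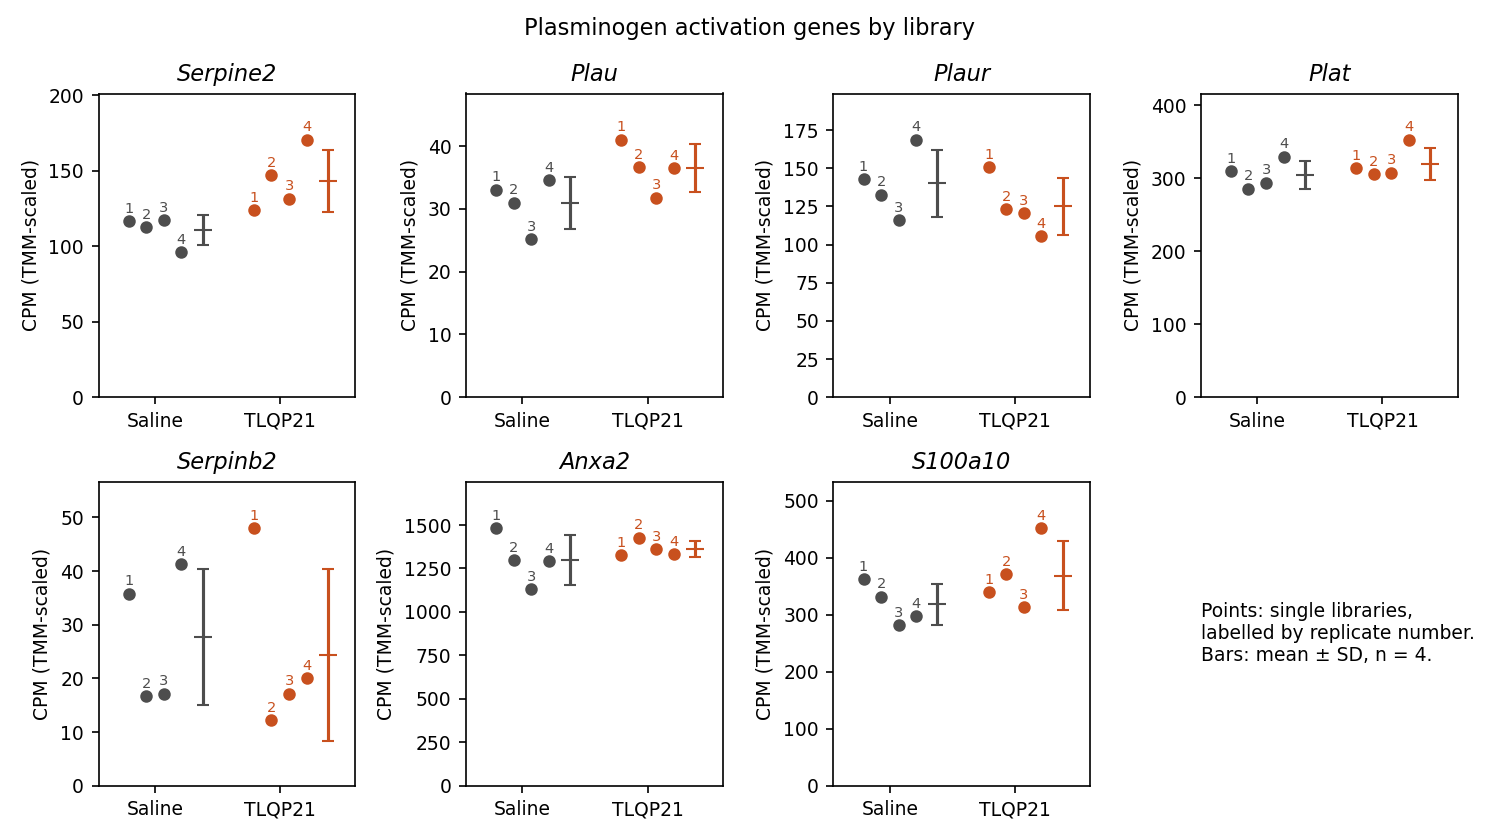
Levels of the 7 genes in each library, in CPM after trimmed-mean scaling on axes that start at 0. Points are single libraries labelled by replicate number, bars are mean ± SD of 4. Serpine2 is the only panel in which all TLQP21 points (123.9 to 170.5 CPM) lie above all Saline points (96.0 to 117.1 CPM).

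Of the inhibitors beside it, Serpinb2, an inhibitor of urokinase that largely stays inside the cell, varied most. It was at 35.8, 16.7, 17.2 and 41.3 CPM in Saline and at 48.0, 12.2, 17.2 and 20.04 CPM in TLQP21. Saline 1, Saline 4 and TLQP21 1 were high and the other 5 libraries low, so that the groups overlapped throughout (log2 fold change -0.19, SE 0.44). The highest library was 3.94 times the lowest. The SD of Serpinb2 within groups (0.767 on the log2 scale) exceeded that of 99.0% of the 5020 tested genes within 1 log2 unit of its level. Its direction turned without Saline 4 or without TLQP21 2 (values from -0.75 to 0.07 over the libraries left out in turn). Of its exonic bases, 12.4% are shared with Serpinb10 on the same strand, whose reads cannot be told apart there. Saline 4 and TLQP21 1 also had the highest fibroblast, endothelial and acinar marker sums of all libraries, whereas Saline 1 had the lowest endothelial sum (167.5 CPM) and a low acinar sum (10050 CPM). The part of these cells in the Serpinb2 levels was not tested.

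The activators lay slightly higher in TLQP21 with overlapping groups. Plau, which encodes urokinase, was at 33.1, 31.0, 25.2 and 34.6 CPM in Saline and at 41.0, 36.7, 31.8 and 36.5 CPM in TLQP21. Of the TLQP21 libraries, 3 were above every Saline library, and TLQP21 3 fell within the Saline range (log2 fold change 0.24, SE 0.12, and 0.15 without Saline 3). Plat, the tissue-type activator, was at 310.0, 285.6, 293.8 and 329.2 CPM and at 313.4, 305.6, 307.6 and 352.5 CPM. Only TLQP21 4 exceeded every Saline library for Plat (log2 fold change 0.07, SE 0.090, and 0.02 without that library), and the spread within groups was narrow, at 6.32% of the mean in Saline and 6.90% in TLQP21.

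The receptor Plaur, which holds urokinase on the cell, had a lower mean in TLQP21 with overlapping groups. It was at 142.8, 132.7, 116.0 and 168.6 CPM in Saline and at 150.8, 123.1, 120.6 and 105.5 CPM in TLQP21. No TLQP21 library exceeded every Saline library, and Saline 4 was highest and TLQP21 4 lowest (log2 fold change -0.16, SE 0.14). Leaving out both of these libraries, a setting added after seeing the data, brought the difference to 0.005. As they are the extremes in the direction of the difference, some shrinking follows from that choice. Neutrophil markers mark a cell type known to carry the receptor. Their sum was also highest in Saline 4 (768 CPM) and lowest in TLQP21 4 (160.2 CPM), with TLQP21 2 next at 170.6 CPM. Singly, S100a9, Csf3r and Cxcr2 were lowest in TLQP21 4, and S100a8, Mmp8 and Retnlg were lowest in TLQP21 2. Other marker sums were extreme in these libraries too. The acinar sum was also highest in Saline 4 (47030 CPM) and lowest in TLQP21 4 (9810 CPM). Fibroblast and endothelial sums were highest in Saline 4. The macrophage sum was lowest in TLQP21 4 (1157 CPM) but highest in TLQP21 1 (1906 CPM). The part of neutrophils or of any of these other cells in the Plaur levels was not tested.

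The plasminogen-binding pair overlapped between groups as well. Anxa2, the calcium-dependent membrane binder of the pair, was at 1481, 1296, 1132 and 1292 CPM in Saline and at 1327, 1427, 1360 and 1331 CPM in TLQP21. The TLQP21 libraries lay inside the Saline range and closer together, with an SD of 3.37% of the mean against 11% (log2 fold change 0.07, SE 0.11, and 0.007 without Saline 3). S100a10, the small subunit that binds plasminogen through its C-terminal lysine, was at 362.6, 331.8, 281.1 and 297.4 CPM and at 339.2, 371.1, 312.6 and 451.4 CPM. TLQP21 2 and TLQP21 4 exceeded every Saline library and the other two TLQP21 libraries did not (log2 fold change 0.21, SE 0.13). Without TLQP21 4 the value for S100a10 was 0.10, and without Saline 4 as well 0.06. Of the exonic bases of Anxa2, 2.6% are shared with Gm16144 on the opposite strand. No exonic base of Serpine2, Plau, Plaur, Plat or S100a10 is shared with another gene of GENCODE M21.

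Across the 7 genes, 5 log2 fold changes were above 0 and 2 below, with a median of 0.07, beside 50.6% above 0 and a median of 0.002 over all tested genes. No gene of the 18238 passed an adjusted p of 0.05 with edgeR (0%), members included, while 558 (3.06%) had an unadjusted p under 0.05. DESeq2 called 4 genes and voom in limma, with quality weights, called 1, none of them among the 7.

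Per kilobase of gene, the 2 binding proteins were the most abundant of the 7 members and Serpine2, urokinase and Serpinb2 the least abundant. The genes of the other lists were not ranked in this way. Lengths were those of all annotated exons of a gene together (8287 bases for Serpine2, 2367 for Plau), not of the transcripts present. The order depends on them. In CPM without lengths, Serpine2 (110.6 in Saline, 143.3 in TLQP21) was above Plau (31.0 and 36.5) and near Plaur (140 and 125). Means over the 8 libraries were 357 CPM per kb for Anxa2 (303 to 397) and 283 for S100a10 (232 to 372). Below them came Plaur at 50.6 (40.3 to 64.4) and Plat at 50.03 (45.8 to 56.5). Serpine2 at 15.3 (11.6 to 20.6), Plau at 14.3 (10.6 to 17.3) and Serpinb2 at 11.1 (5.18 to 20.4) were lowest. Of these neighbours, Plaur and Plat were not separated, with Plaur above Plat in 4 of 8 libraries. Serpine2 and Plau likewise overlapped (Serpine2 above in 6), as did Plau and Serpinb2 (Plau above in 5). Anxa2 was above S100a10 in 7 libraries, and the steps from S100a10 to Plaur and from Plat to Serpine2 held in all 8.

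**Figure D2:**
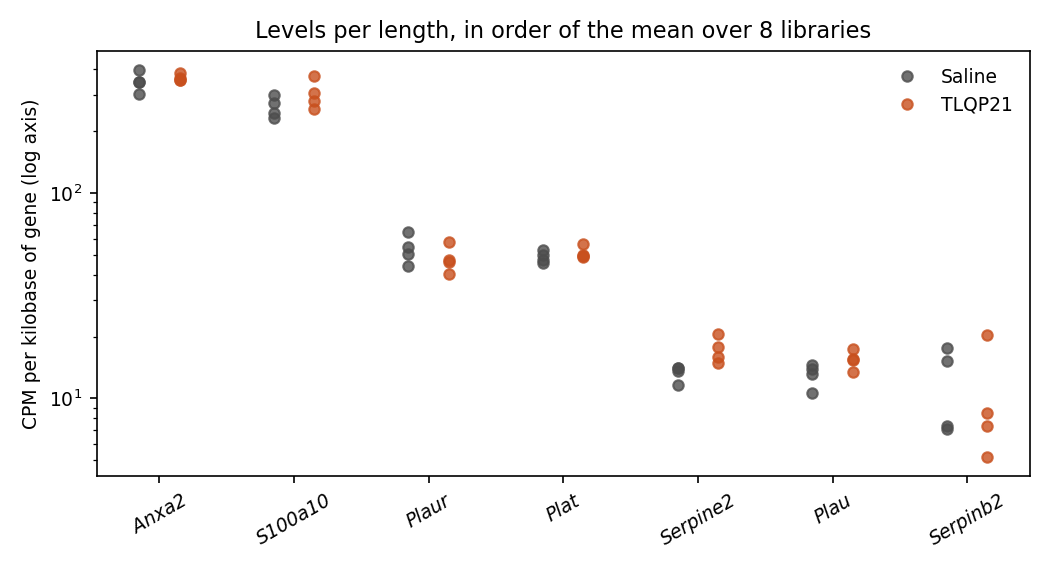
Levels in CPM per kilobase of gene length on a log axis, ordered by the mean over 8 libraries for the 7 genes; each point is a library. Anxa2 and S100a10 lie between 232 and 397, Plaur and Plat between 40.3 and 64.4, and Serpine2, Plau and Serpinb2 between 5.18 and 20.6.

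Ratios within a library do not depend on the scaling between libraries. The ratio of receptor to urokinase (Plaur over Plau, per kilobase) was 3.90, 3.87, 4.17 and 4.41 in Saline and 3.32, 3.03, 3.43 and 2.61 in TLQP21. The groups did not overlap for this ratio, which averaged 4.09 ± 0.251 and 3.10 ± 0.366 (SD, n = 4 each). It was singled out after its values were seen and combines 2 members, so it is a description without a test. Urokinase over its inhibitor (Plau over Serpine2, also per kilobase) was 0.993 ± 0.209 and 0.907 ± 0.176. Its groups overlapped, with Saline 4 highest at 1.26 and TLQP21 4 lowest at 0.749. Anxa2 over S100a10 was 1.33 ± 0.0599 and 1.22 ± 0.191. Only in TLQP21 4 was S100a10 above Anxa2 per kilobase (ratio 0.958), with Anxa2 at 1331 and S100a10 at 451.4 CPM there. Tissue-type over urokinase-type activator (Plat over Plau) gave 3.77 ± 0.439 and 3.35 ± 0.384, with overlap.

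**Figure D3:**
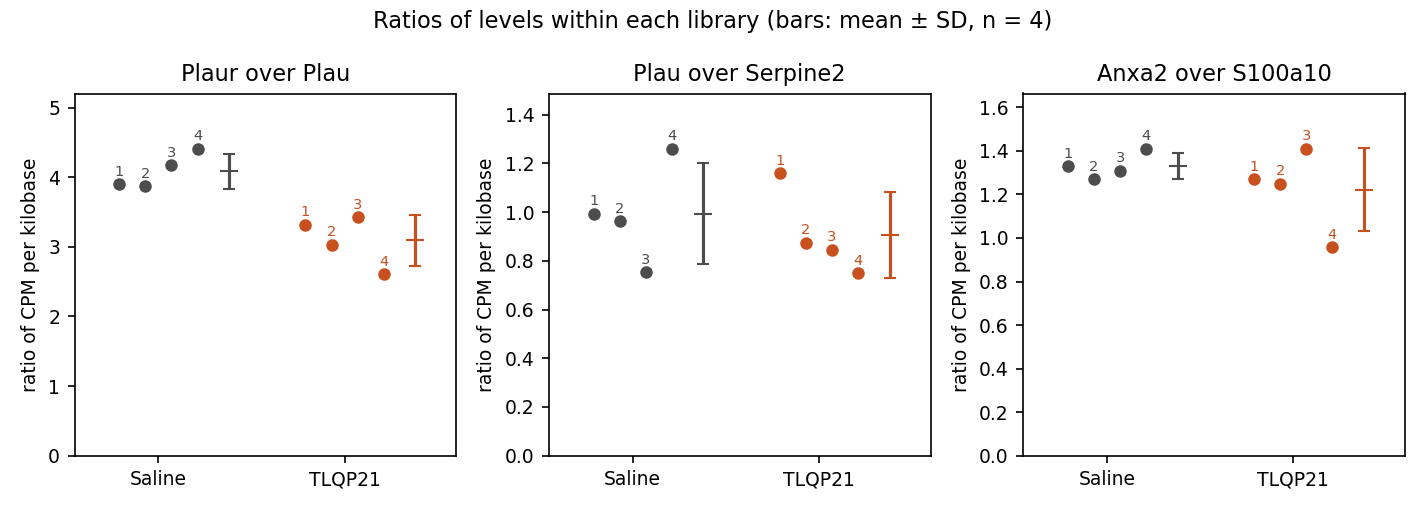
Ratios of CPM per kilobase within each library, with points labelled by replicate number and bars for mean ± SD of 4. Plaur over Plau lies between 3.87 and 4.41 in Saline and between 2.61 and 3.43 in TLQP21, and the other 2 ratios overlap.

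How the members varied together within treatment groups does not use the treatment difference from which they were chosen. Deviations of log2 CPM from each group's mean were correlated for all 21 pairs, with exact two-sided permutation within groups (smallest possible p 0.00174). Serpine2 and Plaur had the most negative value (Pearson r = -0.844, exact permutation p = 0.0243, adjusted p = 0.374; Spearman rho = -0.738, exact permutation p = 0.0747, adjusted p = 0.523). Without Saline 4 and TLQP21 1, the libraries farthest from the median of Serpine2, r was -0.558. Plau and Plaur, enzyme and receptor, had the most positive (r = 0.772, exact permutation p = 0.0486, adjusted p = 0.374; rho = 0.929, exact permutation p = 0.00868, adjusted p = 0.182), and without Saline 3 and TLQP21 3 r was 0.929. The known partners Anxa2 and S100a10 gave r = 0.485 (exact permutation p = 0.184, adjusted p = 0.627; rho = 0.429, exact permutation p = 0.318, adjusted p = 0.834), and -0.110 without Saline 1 and Saline 3. None of the 21 pairs passed after Benjamini-Hochberg adjustment, by either coefficient, and 2 had an unadjusted exact p under 0.05 for Pearson's r. Of the 21 values of r, 16 were positive, with a median of 0.347. The pairs share 7 genes and no such count was made for other genes, so this is a description only. Within the 4 combinations of treatment and Xist or Y-linked kind, of 2 libraries each, r was -0.845 for Serpine2 with Plaur (exact permutation p = 0.25, adjusted p = 0.808). For Plau with Plaur it was 0.763 (exact permutation p = 0.375, adjusted p = 0.808). The smallest possible p is 0.0625 there, so this split cannot decide whether either correlation holds.

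The genes whose pattern was most like that of Serpine2 were sought among 10703 genes of at least 10 CPM, by Pearson's r of the same deviations over 8 libraries, as a description. Zfp704 (r = 0.991), Synj2bp (0.991), Eif3h (0.989), Ift88 (0.981) and Tma16 (0.980) were closest, and Larp1 (-0.983), Ap2s1 (-0.986) and Grk2 (-0.986) were most opposed. With Saline 4 and TLQP21 4 left out these values were between 0.937 and 0.982 and between -0.955 and -0.916. The genes had been picked as the most extreme with the remaining libraries included, so this is not an independent check. Of the 10703 genes, 212 had an r over 0.9. No such count was made for genes other than Serpine2, so whether this is many is not known. Among the members, S100a10 was nearest to Serpine2 (r = 0.724, rank 1577) and Plaur farthest (r = -0.844, rank 10200).

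No member passed in an edgeR comparison of the Y-linked with the Xist libraries that kept treatment as a term. In that fit 68 genes (0.373%) passed, 61 of them outside the X and Y chromosomes. The largest differences among the members were those of Serpinb2 (-0.27 log2, SE 0.46, adjusted p = 0.832) and Plau (-0.14, SE 0.118, adjusted p = 0.616), and Serpine2 was level (0.03, SE 0.119, adjusted p = 0.947). Treatment differences in mean log2 CPM within the Xist and within the Y-linked libraries were 0.24 and 0.50 for Serpine2, 0.28 and 0.21 for Plau, and -0.015 and -0.31 for Plaur. For S100a10 they were 0.03 and 0.38, for Anxa2 -0.01 and 0.15, and for Plat 0.06 and 0.08. Serpinb2 had the widest gap, with -0.02 and -0.52. For Serpine2 the sign is fixed by the lack of overlap. The difference between the kinds was tested as an interaction in edgeR. No gene passed (0%), with 876 at an unadjusted p under 0.05. The members' adjusted p-values ran from 0.842 for Serpine2, Plaur and S100a10 to 0.974 for Plat.

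The other genes of the system formed 6 lists of 82 genes in all, of which 71 were tested. In the edgeR test 0 were higher and 0 lower after adjustment (smallest adjusted p 0.9999). At an unadjusted p under 0.05 there were 11, all lower in TLQP21. Over all genes the 558 (3.06%) were also mostly lower, 413 against 145 higher. Without the liver-rich library Saline 2 the 11 became 3, beside 433 over all genes. Without TLQP21 2 they became 3 beside 347, without TLQP21 3 they became 5 beside 397, and without TLQP21 4 they became 6 beside 574. Over the 71 tested genes, 33 log2 fold changes were above 0 and 38 below, with a median of -0.01.

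By list, the genes at an unadjusted p under 0.05 in edgeR were 1 of 4 tested zymogens and membrane proteases and 2 of 9 inhibitors. They were 2 of 18 in the list of receptors, their ligands and clearance (Sorl1 and Vtn) and 4 of 15 genes of the thrombin arm. Among plasmin substrates they were 2 of 11 and among annexin and S100 relatives 0 of 14, beside 3.06% over all genes. Of the 4 genes of the thrombin arm, 3 were transcripts of liver proteins found mainly in Saline 2 (F2, Serpinc1 and Serpind1). The fourth, Sdc4, had an unadjusted p of 0.0557 in edgeR without that library.

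Transcripts of the substrate of the whole system were detected in Saline 2 alone. Plg, which encodes plasminogen, had 2361 reads (82.7 CPM) in Saline 2 and 0 reads in each of the other 7 libraries, which allows at most 0.113 CPM there (3 reads, counting error only). Transcripts of other plasma proteins made by the liver followed the same library. F2 (prothrombin) was at 74.9 CPM in Saline 2 and at 0.340 to 1.51 CPM elsewhere, Serpinc1 (antithrombin) at 68.0 and 0.230 to 0.613 CPM, and Fgb, a fibrinogen chain, at 424 and 0 to 0.137 CPM. Serpinf2 (the plasmin inhibitor alpha-2-antiplasmin) was at 44.4 and 0.113 to 0.342 CPM. Fgb and Serpinf2 were named after their values were seen. In all, 15 of the 82 genes were over 5-fold higher in Saline 2 than in every other library, and they hold 6 of the 11 genes above: F2, Serpinc1, Serpind1, Pzp, Vtn and Mst1. As these genes were singled out by their level in Saline 2, their fold changes over 8 libraries are below 0 by that choice and are not given.

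The 3 genes at an unadjusted p under 0.05 without Saline 2 were A2m, Sorl1 and Mmp9. A2m encodes alpha-2-macroglobulin, a trap for many proteases including plasmin. It was at 73.9, 37.2, 59.3 and 80.8 CPM in Saline and at 44.2, 42.9, 32.8 and 38.5 CPM in TLQP21, with Saline 2 alone inside the TLQP21 range (log2 fold change -0.66, SE 0.21). Sorl1, a sorting receptor that takes up activator and inhibitor complexes, was at 60.9 to 76.8 CPM in Saline and 51.9 to 59.9 CPM in TLQP21, without overlap (-0.25, SE 0.096, adjusted p = 0.9999). Mmp9, a gelatinase whose proenzyme lies downstream of plasmin and which neutrophils store, was at 108 CPM in Saline 4 and 46.2 to 52 CPM in the other Saline libraries, against 31.7 to 58.1 CPM in TLQP21 (-0.67, SE 0.294, adjusted p = 0.9999). Saline 4 also had the highest neutrophil marker sum, and the part of these cells in the Mmp9 level was not tested.

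Among membrane proteins around the system, Hpn (hepsin, a serine protease of epithelial cells and hepatocytes) was at 24.2 CPM in Saline 2, 15.3 in Saline 4 and 7.90 to 8.79 CPM in the remaining Saline libraries, against 3.77 to 8.83 CPM in TLQP21 (-0.99, SE 0.385). Without Saline 2 the value for Hpn was -0.59 (SE 0.331, unadjusted p = 0.108 in edgeR, adjusted p = 1). Sdc4, a heparan sulfate carrier of the kind to which Serpine2 binds, was at a mean of 418.2 CPM in Saline and 342.9 CPM in TLQP21 (-0.29, SE 0.123, unadjusted p = 0.0434, adjusted p = 0.9999 in edgeR). F2r, the main thrombin receptor, was at 140.7 and 155.8 CPM (0.15, SE 0.145). Of the clearance receptors, Lrp1, which removes serpin complexes from the cell surface, was at 645.1 and 610.9 CPM (-0.08, SE 0.113). Sdc4, F2r and Lrp1 were named after their values were seen. Of the other genes with the smallest p in their lists, Itgb2, a leukocyte integrin chain, was at 150.6 ± 16.1 and 121.6 ± 33.4 CPM (-0.31, SE 0.17), and Serpinb6a, an intracellular serpin, at 161.5 ± 10.3 and 180.4 ± 19.4 CPM (0.16, SE 0.098). Tgfb1, a growth factor released from its latent form by plasmin among others, was at 122 ± 21.2 and 109.2 ± 16.3 CPM (-0.16, SE 0.15). Klk1, a kallikrein of exocrine glands, was at 827.6 CPM in Saline 4, where acinar markers were also highest, and at 195 to 445.5 CPM elsewhere (-0.25, SE 0.44). St14 (matriptase, an epithelial activator of urokinase) was at 52.3 ± 9.70 and 50.2 ± 11.9 CPM (-0.06, SE 0.19, and 0.06 without Saline 2).

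The annexin and S100 relatives of Anxa2 and S100a10 gave 10 of 14 log2 fold changes above 0, with a median of 0.09 beside 0.002 over all tested genes, and none had an unadjusted p under 0.05. Anxa5, a phosphatidylserine binder, was at 527.4 ± 32.0 and 594.8 ± 58.3 CPM (0.17, SE 0.100), with TLQP21 4 at 682 CPM. S100a11 was at 509.7 ± 77.8 and 586.0 ± 62.2 CPM (0.20, SE 0.131) and S100a1 at 61.2 ± 8.07 and 68.5 ± 9.25 CPM (0.16, SE 0.126). S100a10 and these 3 relatives each had their highest level in TLQP21 4. Of the rest of the list, Ahnak, Anxa1, Anxa3 and Anxa4 were also highest there. S100a6 (644 CPM), S100a13 (22.2 CPM) and Anxa11 (23.8 CPM) had their lowest level in that same library. The genes of these last 2 sentences were named after their values were seen. The treatment groups overlapped for every gene of the list and for S100a10.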

How the data were processed

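The authors deposited one table of unnormalised counts of reads per gene for the 8 libraries, beside gene lengths in bases. The submitters' processing notes name DESeq2 (1.32.0), featureCounts (1.5.0-p3) and HISAT2 (2.0.5), and GRCm38 as the build. The strand setting is not given in the sources used here, nor is the annotation release. Per the labels' protocols, libraries were NEBNext Ultra with paired 150 bp reads.

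Counts were tested across all genes with edgeR 4.0.16 in R 4.3.3: default low-count filter by group, trimmed-mean scaling, quasi-likelihood test with no covariates, Benjamini-Hochberg adjustment, threshold 0.05. CPM took the library total times its scaling factor as the library size, and log2 CPM used a prior count of 2. DESeq2 1.42.0 and limma 3.58.1 were alternatives, beside other scalings and filters, a replicate block, the Xist split as a covariate, acinar genes left out and each library left out in turn. The gene test and the correlation test were tested on simulated data.

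The members, lists and rules were chosen with earlier results of these data known. Named genes were the members, Plg, 1 gene that is not reported here, per list up to 3 tested genes with the smallest p, and the 5 genes most and 3 least like Serpine2; others are marked in the text. Groups and replicate numbers came from the sample titles. Intervals from counts cover counting error only. Protein sequences were not used here.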

Additional observations from a re-analysis of the deposited data

Results flagged for a closer look

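Of 82 sets of 4 libraries examined, 16 held a library that lay far from the other 3 (by Dixon's test at the 95% level). Chance alone would single out about 1 in 20 of independent sets. These sets reuse the same 8 libraries, and many of their genes were taken for a small p. The 16 of 82 therefore cannot be set against that rate. Among the members this was Plat alone, at 353 CPM in TLQP21 4 against 306 to 313 CPM in the other TLQP21 libraries. Anxa5 stood out in TLQP21 4 (682 CPM, against 561 to 572) and in Saline 1 (575 CPM, against 510 to 513).

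Saline 2 stood out for the summed hepatocyte markers (4040 CPM) and for 7 genes of the lists: Plg (82.7 CPM), F2 (74.9), Serpinc1 (68.0), Serpind1 (22.6), Vtn (123), Mst1 (7.35) and Pzp (302). Pzp was also apart in TLQP21 4, at 11.3 CPM against 4.07 to 5.12.

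Saline 4 stood out for Mmp9 (108 CPM), the fibroblast markers (11200 CPM, against 5460 to 5850) and the endothelial markers (253 CPM, against 168 to 178). Saline 3 did so for the mesothelial markers (567 CPM, against 462 to 479).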

How the results depend on the processing

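Under every alternative run, the log2 fold changes of the 7 members moved by less than the SD within groups. Apart from rescaling, leaving out 1 library, or 1 of each group, cannot move them by more than that SD. Those runs therefore could not fail this mark, and the values themselves are given here. Serpine2 ran from 0.276 to 0.437 with each library left out and from 0.211 to 0.498 otherwise, and its groups stayed apart under 3 other scalings (ratio 1.042 to 1.087). Signs turned for Plaur (0.005 without Saline 4 and TLQP21 4), Plat (-0.015 without Saline 2 and TLQP21 4), Anxa2 (-0.01 within the Xist libraries) and Serpinb2 (0.067 without Saline 4, 0.033 without TLQP21 2, 0.15 without Saline 4 and TLQP21 4). No pair of members passed with all 8 libraries under another prior count or scaling. With 1 library left out a single pair cannot pass (adjusted p at least 0.146), nor with 2 left out or within treatment and kind, so those settings do not bear on it. The count of called genes was 0 except with DESeq2 (4) and limma's voom (1), and 0 with each library left out. The count of 11 pathway genes at an unadjusted p under 0.05 became 18 without the filter, 6 with DESeq2, 6 with the Xist split as covariate, 3 with Saline 2 and TLQP21 4 left out, 5 with Saline 4 and TLQP21 4 left out (1 higher, 4 lower), and 3 to 13 with each library left out; the cause was not tested. The depth p ran from 0.0286 to 0.143 with each library left out. With the replicate block 0 genes were called and the pathway count was 3. Same-numbered libraries correlated at 0.115, 0.194, 0.271 and -0.053 for numbers 1 to 4, which does not show pairing in all 4, the numbers also follow the Xist split, and 0 of 4 Saline libraries correlated best with their own number. Added after seeing the data were the alternatives of the pathway count, of the depth p and of the Serpine2 ratio, all settings without Saline 4 and TLQP21 4, and, for counts of genes, that without Saline 2 and TLQP21 4.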

Other observations

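S100a4, a relative of S100a10 known from fibroblasts and macrophages, had 4 to 23 reads per library (0.137 to 0.783 CPM), although fibroblast markers summed to at least 5458 CPM in every library. Of its exonic bases in GENCODE M21, 51.7% are shared with Gm42674 on the same strand, which was at 0 to 0.0700 CPM. Whether reads over shared bases were counted for either gene was not tested. The gene was singled out after its values were seen.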
